A study of Mus musculus with 2 samples.

Results

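Nuclear genes for mitochondrial respiration, protein import and the mitochondrial ribosome were followed in the cortex of mouse embryos with and without Trrap, a scaffold protein of several histone acetyltransferase complexes. Both libraries were made from cortices of B6/129 embryos at stage E14.5 (days of embryonic development), 1 library per genotype. The Trrap-deleted library came from TrrapF/F NestinCre+ embryos. The control was titled wild and its genotype entry reads wild type, while its description gives it as heterozygous (TrrapF/+ NestinCre+). By that description both genotypes carried the Cre driven from Nestin, a gene of neural progenitors. The control then carried 1 floxed Trrap allele as well. The sources used here do not say how many embryos went into a library. Sex-linked transcripts differed between the libraries and are given further on. The deposited table holds 2381 gene loci that passed the authors' test at a q-value of 0.05, with a value per library in FPKM, a fragment count corrected for the length of the transcript and the size of the library. Trrap had no row, and the labels could not be checked by it. None of 7 markers of cortical progenitors and neurons had a row, Pax6, Sox2 and Tbr1 among them, which leaves the labelled tissue unchecked here. A gene without a row either missed the authors' test or was not measured, and it is called not listed. The depth of the libraries is unknown.

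Members were the rows with 1 gene symbol and a value above 0 in both libraries whose symbol began with the name of a respiratory chain complex (Nduf, Sdh, Uqc, Cox, Atp5), of the mitochondrial ribosome (Mrpl, Mrps), of an import complex (Timm, Tomm), or of one of several other mitochondrial families. The rule took 18 of the 2317 single-symbol rows with values in both libraries. Of the 18, 17 are annotated as protein-coding in RefSeq and 1, Mrpl48-ps, is a pseudogene. The label holds for most members: the rule also reached Idh1, whose enzyme works in the cytosol and peroxisomes. RefSeq lists 277 protein-coding genes in these families, of which 19 (6.86%) had a row, against 9.67% of all 21896 protein-coding genes. The 2 beyond the members stood in the table under other names: 2900010M23Rik, now Uqcc2, and Gm3244, now Ndufb4c.

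Mitochondria make most of a cell's ATP by passing electrons along complexes I to IV of the inner membrane and letting protons flow back through ATP synthase. A few core subunits are encoded in mitochondrial DNA and made on mitochondrial ribosomes, while all other subunits, the ribosomal proteins included, are encoded in the nucleus and imported through the outer (Tomm) and inner (Timm) membrane machinery. In the embryonic cortex, progenitors rely largely on glycolysis, and oxidative metabolism grows as neurons differentiate.

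Promoters of such genes often carry sites for the factors NRF1, GABPA (of the ETS family) and YY1. The stretches upstream of the start site are shown for the members in which a match to 1 of these 3 motifs was found there, with the match in capitals. They were read from RefSeq promoter windows on build GRCm38.p6, 5′ to 3′ along the gene. Ndufb4 holds 3 NRF1 matches (chr16:37654369-37654618, minus strand, the 250 bases before the start site), and Ndufa8 holds 1 (chr2:36049339-36049418, minus strand, 80 bases). Uqcr11 holds a match to the ETS motif (chr10:80406838-80406917, minus strand) and Mrps11 one to the YY1 motif (chr7:78782993-78783072, plus strand).
Ndufb4: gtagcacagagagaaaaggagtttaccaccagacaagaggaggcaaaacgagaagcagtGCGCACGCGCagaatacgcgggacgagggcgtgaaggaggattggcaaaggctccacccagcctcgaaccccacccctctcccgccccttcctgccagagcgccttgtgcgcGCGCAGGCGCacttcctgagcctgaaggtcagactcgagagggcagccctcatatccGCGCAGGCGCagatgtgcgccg
Ndufa8: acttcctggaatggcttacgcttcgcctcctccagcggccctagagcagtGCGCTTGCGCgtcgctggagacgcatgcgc
Uqcr11: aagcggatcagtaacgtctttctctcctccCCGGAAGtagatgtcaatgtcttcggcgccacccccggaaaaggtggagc
Mrps11: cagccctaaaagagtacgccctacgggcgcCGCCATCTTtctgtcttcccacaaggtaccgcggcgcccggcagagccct

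The 3 motifs were found in a larger share of the families' windows than of all windows. In the listed members the share was not above that in the families' other genes. Windows ran from 250 bases before to 50 after the start site, 16 of the 18 members had at least 1 (17 windows), and both strands were searched. The NRF1 motif was found in 2 of 17 member windows (11.8%), in 18.0% of the 244 windows of the families' other genes and in 6.38% of 21262 protein-coding windows. The ETS motif CCGGAAG was found in 2 of 17 (11.8%), 29.1% and 11.6% of the same sets, the other member match lying 16 bases into the Ndufs8 transcript. YY1's AAGATGGCG stood in 1 member window (5.88%), 7.79% and 1.83%, and the E-box CACGTG in 1 (5.88%), 11.1% and 7.84%. CCAAT, the site of NF-Y, was found in 8 (47.1%), 40.6% and 38.2%. A match is a description of the letters and not evidence of binding, and with 17 windows a single match is worth several percent. Of the 4 members lower in the Trrap-deleted library, only Ndufb4 held a match to 1 of the NRF1, ETS and YY1 motifs, and its value is uncertain for a reason given with complex I.

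**Figure D1:**
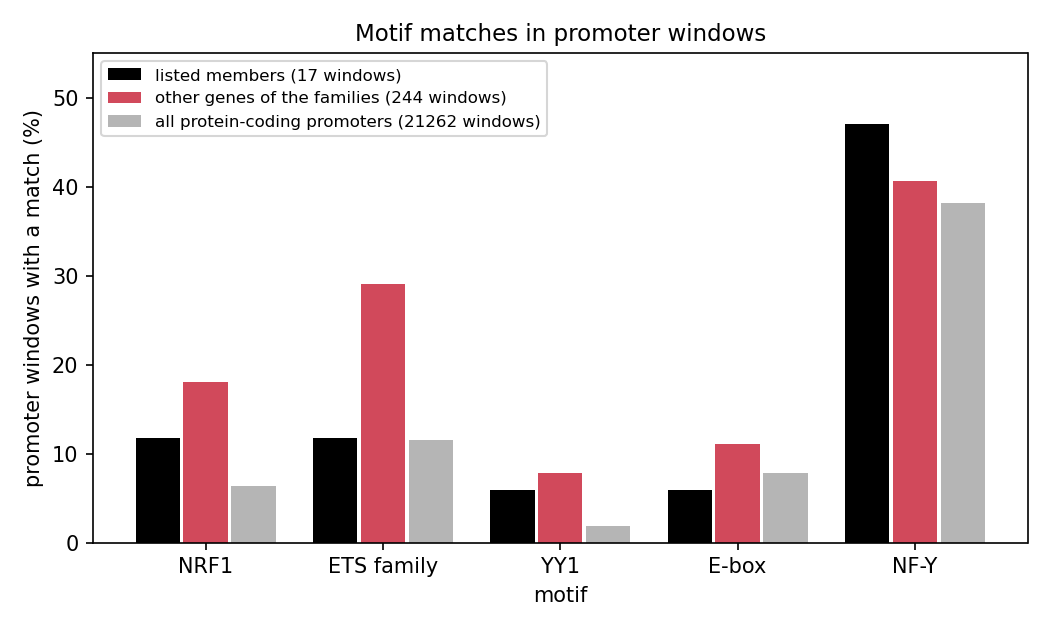
Share of promoter windows (percent, vertical axis) with a match to each of 5 motifs, for the listed members (17 windows), the other genes of the families (244) and all protein-coding genes (21262). NRF1, ETS and YY1 matches were most frequent in the other genes of the families, at 18.0%, 29.1% and 7.79%.

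Most listed members were higher in the Trrap-deleted library. Of the 18, 14 were higher and 4 lower as deposited, or 12 and 6 after rescaling the libraries so that the median listed row had a log2 ratio of 0, which turned Ndufa8 and Timm13. That median covers only rows that passed the authors' test, so it depends on which rows passed and is no measure of library size. Over all single-symbol rows 58.4% were higher and 41.6% lower as deposited. Among protein-coding rows 63.2% were higher and 36.8% lower, and of the 17 protein-coding members 13 were higher. The median log2 ratio (Trrap-deleted over control) of the members was 0.67, against 0.55 over all rows. The 14 members that were higher lay between 1.42-fold and 2.33-fold, with a median of 1.70-fold, which is below the 1.88-fold of all rows that were higher. At 2-fold or more, 5 members (27.8%) were higher, against 25.6% of all rows, and 2 (11.1%) were lower, against 13.3%, shares close to those of listed rows in general. With 1 library per genotype none of these counts has an error, and the members are not replicates of each other. In whole cortex, fewer cells of a type and less RNA per cell cannot be told apart.

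**Figure D2:**
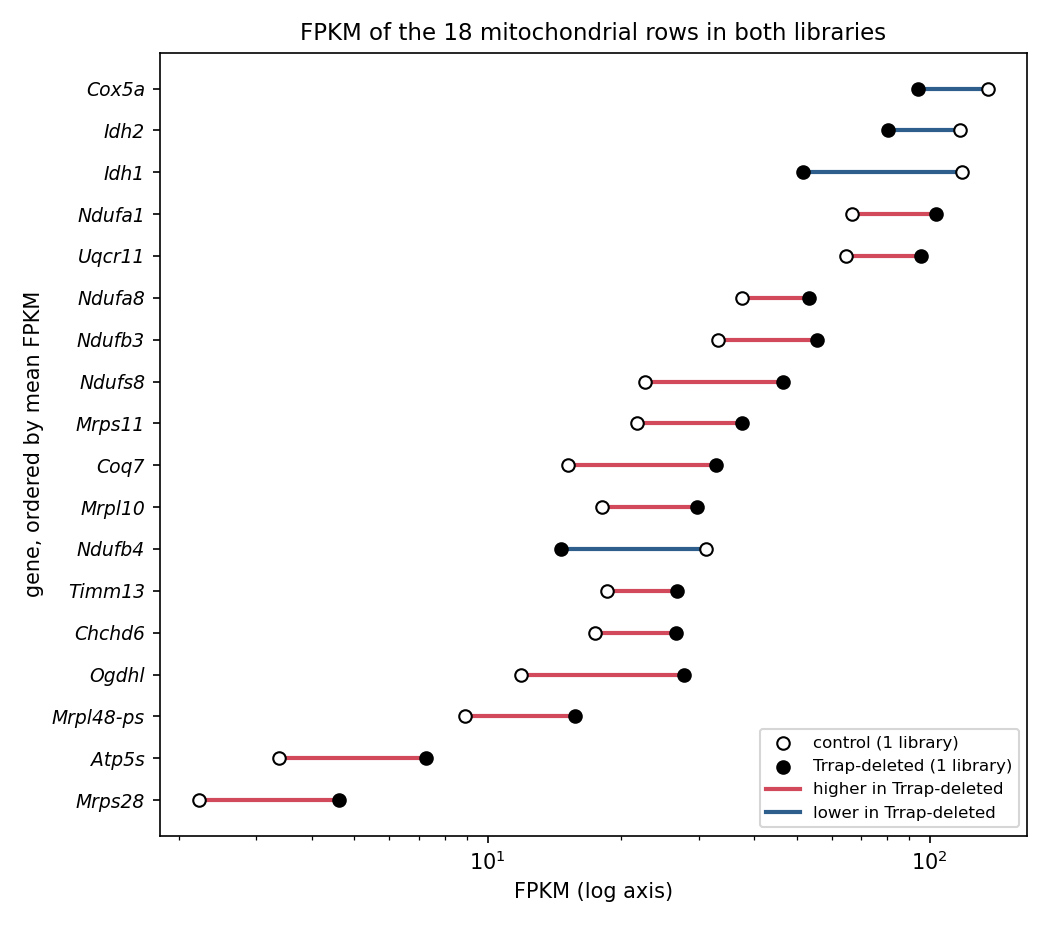
FPKM of the 18 members in the control (open points) and the Trrap-deleted library (filled points), 1 library each, on a log axis, ordered by mean FPKM. As deposited, 14 members were higher in the Trrap-deleted library (red) and 4 lower (blue), and the 3 with the highest control values, Cox5a, Idh1 and Idh2, were all lower.

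Complex I, which takes electrons from NADH, had the most listed members: 5 of the 40 subunit genes RefSeq lists, 4 higher and 1 lower (3 and 2 once the libraries are rescaled to a median of 0). None of the 9 genes grouped with its assembly (the Ndufaf factors and Ndufa4l2) had a row. Ndufs8 (chromosome 19, 3908478 to 3912929 on mm9), an iron-sulfur subunit of the electron path, stood at 22.7 FPKM in control and 46.6 in Trrap-deleted cortex. That was 2.05-fold higher, and the q-value in the authors' deposited table was 2.43e-06. With 1 library per genotype, this q-value and the others quoted hold no variation between libraries of the same genotype. Ndufb3, an accessory subunit of the membrane arm (chromosome 1, 58643228 to 58652808), stood at 33.2 and 55.7 FPKM, 1.68-fold higher. Ndufs8 belongs to the matrix arm, which carries the electrons, and Ndufb3 to the membrane arm, which pumps protons. Ndufa1, a small membrane subunit encoded on the X chromosome (34727583 to 34731158), stood at 66.6 and 103 FPKM, 1.55-fold higher. Ndufa8, an accessory subunit on the intermembrane side, stood at 37.7 and 53.5 FPKM, 1.42-fold higher, the smallest difference of the 18 in either direction, with q = 0.0255 in the authors' deposited table. After the rescaling to a median of 0 its log2 ratio was -0.046.

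Ndufb4, another accessory subunit of the membrane arm, was the complex I member with the opposite direction. Its row (chromosome 16, 37647256 to 37654539) stood at 31.1 FPKM in control and 14.7 in Trrap-deleted cortex, 2.12-fold lower. A near-identical gene moved the other way: Gm3244, now named Ndufb4c, was listed at 0 in the control and at 65.4 FPKM in the Trrap-deleted library. In GENCODE, Ndufb4c is typed as a processed pseudogene, though RefSeq counts it as protein-coding. Its transcript there matched 390 of the 971 bases of the Ndufb4 transcript at 100% identity. The Gm3244 locus of the table spans 78499 bases (chromosome 15, 73591840 to 73670338), against 485 bases for the gene in RefSeq. The sources used here do not say how the authors assigned reads that fit both loci, so the values of Ndufb4 and of Gm3244 are both uncertain. Whether this sharing of reads has a part in either value was not tested.

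Downstream of complex I the listed genes were few and did not share a direction. Uqcr11, a small subunit of complex III (chromosome 10, 79865742 to 79869575), stood at 64.7 FPKM in control and 95.8 in Trrap-deleted cortex, 1.48-fold higher and close to no difference after the rescaling to a median of 0 (log2 ratio 0.016). Uqcc2, an assembly factor of complex III that is listed as 2900010M23Rik and so lies outside the rule, stood at 48.9 and 81.0 FPKM, 1.66-fold higher. Cox5a, a nuclear subunit of cytochrome c oxidase (complex IV), stood at 136 and 94.1 FPKM, 1.44-fold lower, and was the most abundant member by mean FPKM. Cox5a thus went the opposite way to the complex I and III members other than Ndufb4. Its locus in the table (chromosome 9, 57369039 to 57400576) is 2.09 times as long as the RefSeq gene, so reads of a neighbouring gene may be in its value. None of the other 26 genes in the Cox families had a row under a current RefSeq name, nor had any of the 8 genes of complex II and its assembly.

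Atp5s, now Dmac2l, the only ATP synthase name listed, encodes the coupling factor B protein. It stood at 3.38 FPKM in control and 7.26 in Trrap-deleted cortex, 2.15-fold higher at a low level. Coq7, the hydroxylase of the last but one step of coenzyme Q synthesis (chromosome 7, 125653173 to 125676870), stood at 15.2 and 32.8 FPKM, 2.15-fold higher, with q = 1.97e-05 in the authors' deposited table. Coenzyme Q carries electrons from complexes I and II to complex III.

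The mitochondrial ribosome was represented by 4 rows, all higher as deposited and after both rescalings. Mrps11, of the small subunit, stood at 21.8 FPKM in control and 37.6 in Trrap-deleted cortex, 1.73-fold higher. Mrps28, also of the small subunit, stood at 2.23 and 4.61 FPKM, 2.07-fold higher, and was the least abundant member. Mrpl10, of the large subunit, stood at 18.2 and 29.7 FPKM, 1.63-fold higher. The fourth row was no protein gene: Mrpl48-ps is a processed pseudogene whose transcript matched Mrpl48 over all 636 bases at 98.1% identity, and it stood at 8.88 and 15.8 FPKM. Mrpl48 itself was not listed, and the sources used here do not say how reads were divided between it and the copy. The loci of Mrpl10 and Mrps11 were 3.59 and 1.81 times as long as the RefSeq genes, so their values may hold reads of neighbours. RefSeq lists 49 genes for proteins of the large subunit and 29 for the small one, so few of them had a row. No translation or transcription factor of the rule (Mtif2, Mtif3, Tufm, Tfb1m, Tfb2m) was listed.

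Import and membrane architecture had 1 listed member each. Timm13, part of the small chaperone complex that guides proteins across the intermembrane space (chromosome 10, 80362195 to 80363714), stood at 18.6 FPKM in control and 26.9 in Trrap-deleted cortex, 1.45-fold higher, and its log2 ratio was -0.020 once the libraries are rescaled to a median of 0. Gm9797, a transcribed pseudogene that matched Timm8a1, the gene of the partner chaperone, over 294 bases at 100% identity, stood at 11.9 and 6.81 FPKM, 1.74-fold lower, while Timm8a1 was not listed. Of the 162 listed pseudogene rows with a protein-coding gene they matched, 144 (88.9%) were lower, with a median log2 ratio of -0.73, so Gm9797 was like most of them and Mrpl48-ps was not. Chchd6, a component of the MICOS complex at crista junctions, stood at 17.5 and 26.7 FPKM, 1.53-fold higher. None of the 10 Tomm genes of the outer membrane had a row, nor had the fusion genes Opa1, Mfn1 and Mfn2.

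Enzymes that handle isocitrate and 2-oxoglutarate showed the largest differences in both directions. Idh1, the cytosolic NADP-dependent isocitrate dehydrogenase (chromosome 1, 65204952 to 65233053), stood at 118 FPKM in control and 51.8 in Trrap-deleted cortex, 2.28-fold lower, with q = 0.000813 in the authors' deposited table. Idh2, its mitochondrial counterpart, stood at 117 and 80.6 FPKM, 1.46-fold lower, at a locus 3.81 times as long as the RefSeq gene. Both NADP-dependent enzymes, which supply NADPH, were lower, and the Idh3 genes, which encode the NAD-dependent enzyme of the TCA cycle, were not listed. Ogdhl, which encodes a brain-enriched relative of 2-oxoglutarate dehydrogenase (chromosome 14, 33135201 to 33161422), stood at 11.9 and 27.8 FPKM, 2.33-fold higher, the largest increase of the 18. Ogdh, the Mdh genes and the Pdh genes were not listed. Idh1 shares its promoter region with Pikfyve, a lipid kinase gene read from the opposite strand with its start 206 bases away, and Pikfyve was also listed lower (8.70 and 5.70 FPKM, 1.53-fold). Start sites of this head-to-head kind within 500 bases were found for 4 of the 17 member windows (23.5%), 30.3% of the families' other windows and 10.6% of protein-coding windows. The partners of the other 3 (Mrpl46 for Mrps11, Morn5 for Ndufa8 and Fam126b for Ndufb3) were not listed.

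Abundance and direction were linked across the whole table, and the members lay at moderate to high levels. With the single-symbol rows split into 3 equal groups by mean FPKM, 76.6% were higher in the least abundant group, 60.5% in the middle group and 38.0% in the most abundant. The members in those groups were 2 of 2, 6 of 7 and 6 of 9 higher. The 3 lower members of the most abundant group, Cox5a, Idh1 and Idh2, had the highest control values of all 18, between 117 and 136 FPKM. In the Trrap-deleted library the order had changed, with Ndufa1 at 103 and Uqcr11 at 95.8 FPKM above Cox5a at 94.1. Summed over the 14 higher members, FPKM went from 343 to 564, and over the 4 lower members from 402 to 241, so that the sum of all 18 came to 745 in control and 805 in Trrap-deleted cortex. As deposited the members' sum was thus 1.08 times the control value and that over all single-symbol rows 0.786 times. After rescaling to a median of 0 both were lower, at 0.738 and 0.536 of the control value.

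**Figure D3:**
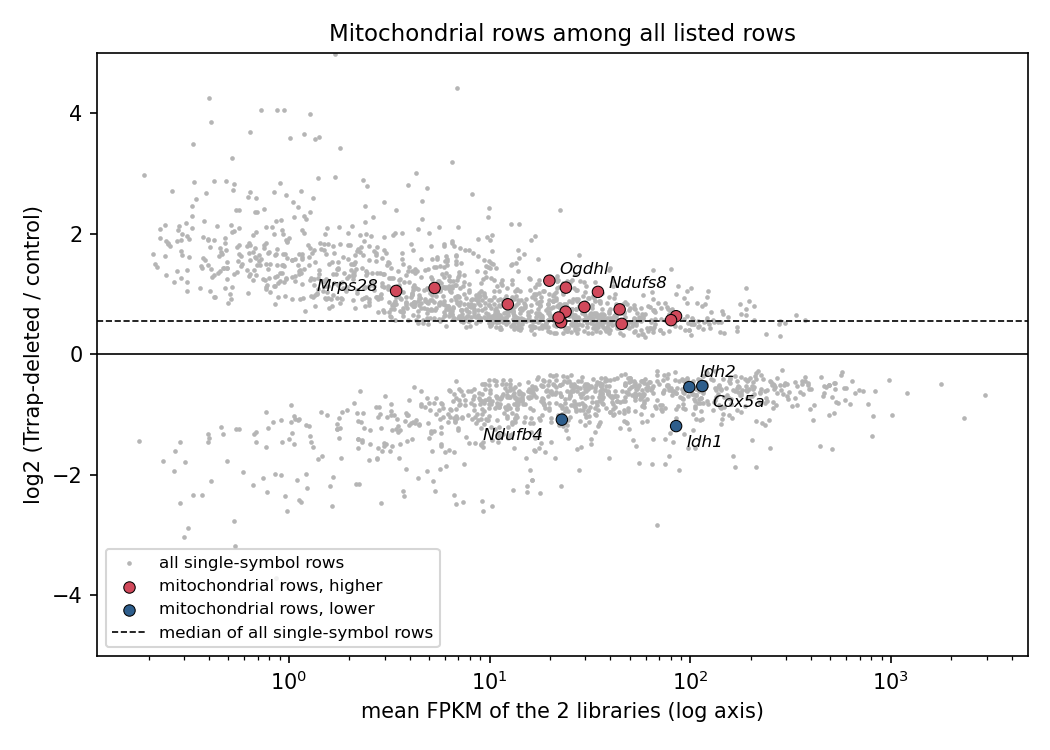
Log2 ratio (Trrap-deleted over control, vertical axis) against mean FPKM (log axis) for 2317 single-symbol rows (grey), with the 18 members in red (higher) and blue (lower), 9 grey rows lying beyond 5 log2 units and off the plot. The dashed line is the median of all rows, 0.55, near which Uqcr11, Timm13 and Ndufa8 lie.

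In lists of mitochondrial genes outside the rule, most listed genes were higher too. Of 217 symbols in 9 lists of other mitochondrial functions, 16 were listed, 14 higher and 2 lower as deposited (13 and 3 after the rescaling to a median of 0, which turned Gdap1), with a median log2 ratio of 0.75 against 0.55 over all single-symbol rows, of which 58.4% were higher. Among protein-coding rows the median was 0.60 and 63.2% were higher. The lists were chosen with earlier results of these data known. Of 6 more listed carrier genes of the Slc25 family, chosen after their values were seen, 2 were higher and 4 lower. Together with the lists that makes 22 listed genes outside the rule, 16 higher and 6 lower. In fatty acid oxidation none of the rule's own 14 genes (acyl-CoA dehydrogenases and electron transfer flavoprotein) had a row, while in a further list all 4 listed of 22 were higher: Cpt1a, the enzyme that commits fatty acids to import, went from 10.6 FPKM in the control to 17.8, and Slc25a20, the carnitine carrier, from 12.4 to 18.7. The brain isoform Cpt1c went from 22.2 to 43.7 FPKM and Pccb, a propionyl-CoA carboxylase subunit, from 17.3 to 28.9. Of 24 genes around the TCA cycle 3 were listed, all higher: Pcx, pyruvate carboxylase, at 5.58 and 9.97 FPKM, Suclg2, a succinyl-CoA ligase subunit, at 7.02 and 11.9, and the aminotransferase Got2 at 42.6 and 63.7. Suclg2 takes part in a step of the cycle itself, and the genes of citrate synthase, aconitase and fumarase were not listed.

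The 2 lower genes of these lists were abundant. Atpif1, the inhibitor of ATP synthase, stood at 194 FPKM in control and 117 in Trrap-deleted cortex, and Hspa9, the matrix Hsp70 that pulls in imported proteins, at 89.5 and 59.3. Slc25a23, a calcium-regulated carrier of ATP and phosphate, was higher at 45.3 and 85.3 FPKM, and Bnip3l, a mitophagy receptor, at 147 and 231. Higd1a, a respiratory complex factor, stood at 9.17 and 14.9 FPKM, Gdap1, a fission factor, at 20.3 and 27.1, and Top1mt, the mitochondrial topoisomerase, at 2.62 and 5.71. The nuclear receptor genes Ppara (0.190 and 0.841 FPKM) and Esrrg (0.325 and 0.960 FPKM), regulators of oxidative genes, were higher at levels below 1 FPKM. Of the other regulators fixed in that list, Ppargc1a, Nrf1, Gabpa, Esrra and Yy1 were not listed. None of the 15 genes of mitochondrial DNA that were looked for and none of 32 other genes of mitochondrial translation had a row.

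**Figure D4:**
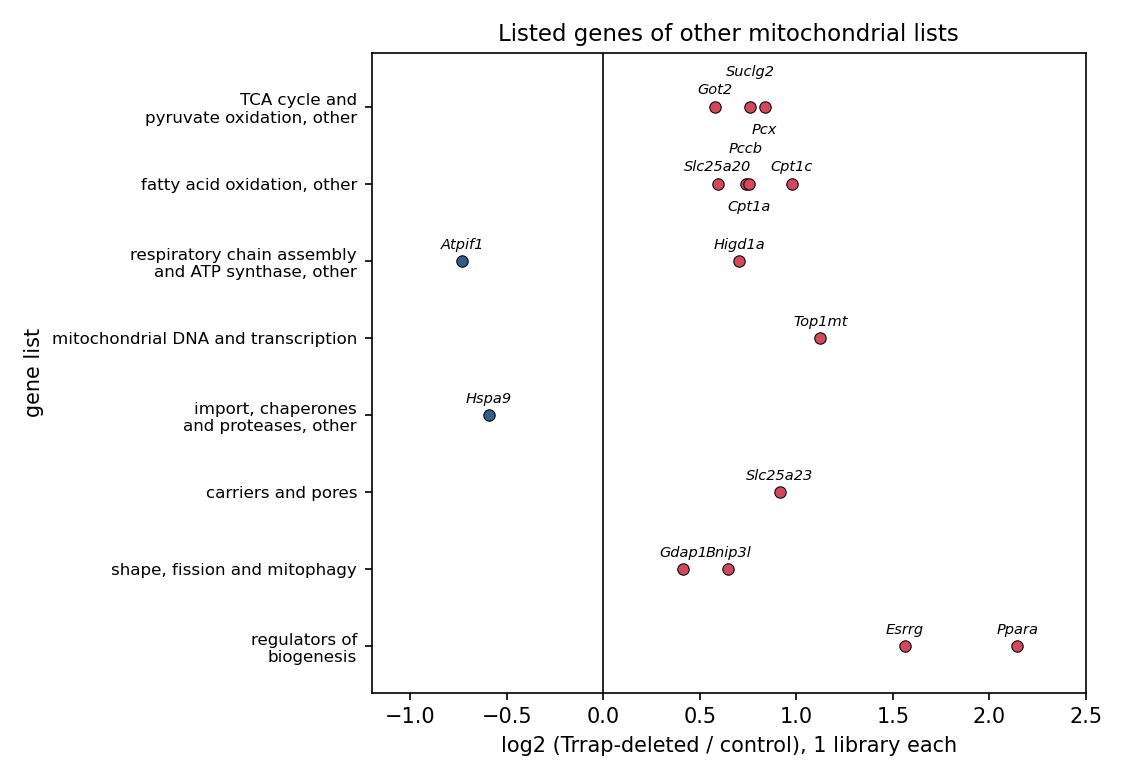
Log2 ratio (Trrap-deleted over control, horizontal axis) of the 16 listed genes in other mitochondrial lists, 1 point per gene and 1 library per genotype. As deposited 14 lie above 0, with Atpif1 and Hspa9 below it, and after rescaling to a median of 0 Gdap1 would lie below it too.

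The libraries differed in other ways at the same time. Y-linked transcripts were near 0 in control and present in Trrap-deleted cortex (Eif2s3y at 0.111 and 32.8 FPKM), and Xist stood at 313 and 142 FPKM, beside which the X-linked Ndufa1 was higher. Female (Xist) and male (Y-linked) transcripts were thus both present in the Trrap-deleted library, while the control held almost only the former. The libraries differed in sex as well as genotype, and the parts of sex and genotype cannot be told apart. Of 10 microglial markers 8 were listed, all higher, summing to 11.99 and 30.1 FPKM. Of 8 meningeal markers 5 were listed, all higher, summing to 2.66 and 15.4 FPKM. The listed rows of both marker sets lay in the least abundant of the 3 groups by mean FPKM. In that group 76.6% of rows were higher, with a median log2 ratio of 1.13, against 1.38 for the microglial and 3.57 for the meningeal rows. How far the markers' direction goes with their low abundance was not tested. The 3 listed of 7 ventral telencephalic markers were lower, summing to 10.7 and 2.35 FPKM. Of 6 erythroid markers only 1 was listed, Hbb-y, which was higher at 96.8 and 157 FPKM. None of 6 endothelial markers was listed. The part of these differences in the members' values was not tested.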

How the data were processed

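RNA sequencing of embryonic mouse cortex gave 2 libraries, 1 per genotype. Per the submitters' processing notes, TopHat2 and build mm9 were used; which software counted and tested is not stated there. The single table as deposited by the authors has the layout that Cuffdiff writes, so its values were read as FPKM, a unit the file does not write. Each p-value and q-value was deposited by the authors with its row, from a test of their own, and the file holds only rows with a q-value up to 0.0500. Library depth is unknown. FPKM carry no counts, so no interval or detection limit was set.

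Log2 ratios were computed with Python 3.11.15 and pandas 2.3.3, without a pseudocount. No test was run, since neither genotype has a replicate. Rows with several symbols (59, none with a symbol of the rule) and rows at 0 in a library (5) were left out; Gm3244 is one of the latter. All 18 members are named, with every listed gene of the mitochondrial lists. Members and lists were chosen with earlier results of these data known. Starts were moved to 1-based counting. Locus lengths were set against RefSeq gene lengths on GRCm38.p6, and transcripts were compared with blastn 2.17.0 on GENCODE M21 (at least 90% identity over 200 bases, or 85% over 50% of a pseudogene). By that search 4 members had a near-identical gene: Cox5a and Ndufb3, whose copies were not listed, Ndufb4 and Mrpl48-ps. The counting was tested on simulated data. Alternatives were other scalings, filters on FPKM, q-value, fold and gene type, and a pseudocount of 1.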

Additional observations from a re-analysis of the deposited data

How the results depend on the processing

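No paired analysis was possible because each genotype had 1 library, and for the same reason no replicate could be left out. The counts of 14 higher and 4 lower members moved by more than 1.5 times only under stricter limits, to 5 and 2 at a q-value under 0.01 and to 5 and 2 at 2-fold or more, which keep fewer rows, and to 2 lower without the 4 members whose locus is over 1.5 times the gene length. At both stricter limits 71.4% of the members kept were higher, against 58.7% of all rows under the q-value limit and 65.8% at 2-fold or more. The median log2 ratio of the members (0.67 as deposited) became 0.12 after rescaling to a median of 0, 1.02 after rescaling to the same summed FPKM, 1.04 at a q-value under 0.01 and 1.05 at 2-fold or more. Over all single-symbol rows the median of 0.55 became 0, 0.90, 0.61 and 1.19 at those settings. At 2-fold or more the members' median thus lay below that of all rows. The rescalings shift every log2 ratio by -0.55 and 0.35. Both shifts come only from rows that passed the authors' test, so neither is a measured library size. For complex I subunits the median of 0.63 became 0.082, 0.98, 0.75 and, with only Ndufs8 and Ndufb4 left at 2-fold or more, -0.024. For the 3 enzymes Idh1, Idh2 and Ogdhl the median of -0.54 became -1.09 and -0.20 under the rescalings and 0.016 wherever Idh2 dropped out, which was at the stricter q-value, at 2-fold or more and without the long loci. Single genes that changed direction were Ndufa8 (-0.046) and Timm13 (-0.020), both after rescaling to a median of 0. The settings without long loci, without the X-linked Ndufa1 and without Ndufb4 were chosen after seeing the data, and leaving out Ndufa1 or Ndufb4 kept the counts within 1.5 times. Depth is unknown, so what it limits cannot be said.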

Other observations

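Glycolysis, the other main source of ATP, split by gene and isoform. Of 23 genes 9 were listed, 4 higher and 5 lower as deposited (3 and 6 after rescaling to a median of 0, which turned Pfkm). Their median log2 ratio was -0.39, against 0.55 over all single-symbol rows, of which 58.4% were higher. Eno1, Ldhb, Pgk1, Pfkl, Pfkm and Hk1 lay in the most abundant of the 3 groups by mean FPKM. In that group the median was -0.49 and 38.0% of rows were higher. Eno2, Pfkfb3 and Hk2 were less abundant. Whether abundance has a part in the glycolysis values was not tested. The hexokinase genes went opposite ways, Hk1 at 17.6 FPKM in control and 36.8 in Trrap-deleted cortex and Hk2 at 9.46 and 3.16, and Pfkfb3, which makes an activator of phosphofructokinase, stood at 16.1 and 5.88. The neuronal enolase gene Eno2 stood at 12.2 FPKM in control and 28.2 in Trrap-deleted cortex, while the general enolase gene Eno1 stood at 183 and 112. Ldhb, a lactate dehydrogenase subunit gene, stood at 115 and 55.2 FPKM, and Pgk1, phosphoglycerate kinase, at 109 and 83.5. The phosphofructokinase genes Pfkl (33.5 and 61.5 FPKM) and Pfkm (35.3 and 49.7 FPKM) were higher. Ldha, Gapdh and the glucose transporter gene Slc2a1 were not listed.

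Mitochondrial carriers of the Slc25 family outside the lists, chosen after their values were seen, went both ways. Slc25a27, a carrier of the uncoupling protein family expressed in brain, stood at 33.7 FPKM in control and 16.4 in Trrap-deleted cortex. Slc25a30 (10.3 and 6.39 FPKM), Slc25a33 (2.89 and 1.47 FPKM) and Slc25a47 (7.17 and 3.61 FPKM) were also lower. Slc25a46, an outer membrane protein linked to mitochondrial shape (23.7 and 34.9 FPKM), and Slc25a44 (12.8 and 19.1 FPKM) were higher.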
